A study of Homo sapiens with 10 samples.

Results

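The levels of 10 well-known target genes of the transcription factor p53 were measured in LNCaP-C4-2 cells, an established line of prostate cancer that grows without androgen, after the level of CPT1A was lowered or raised. The genes were CDKN1A, BTG2, MDM2, ZMAT3, SESN1, TP53I3, RRM2B, FAS, BBC3 and TP53INP1, well-established targets that were listed by name, without a limit on their values. All 10 of them were among the 57353 gene symbols counted, and all 10 passed the filter on low counts, which left 17230 genes for testing. CPT1A is the mitochondrial enzyme that starts the import of long-chain fatty acids for oxidation. The study compared 4 lines of cells: 2 samples with a non-targeting shRNA, labelled as scrambled (NT), 3 with a CPT1A-targeting shRNA (KD), 2 with empty lentiviral vector (EV) and 3 with a lentiviral CPT1A cDNA (OE). Per the labels, NT and KD were both selected with puromycin, and EV and OE with blasticidin, so NT and EV differ in vector and drug together. A single shRNA and 1 line of each kind are described, with no separate transductions, so that p values here measure the spread between samples of a line, which may be technical.

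p53 is kept low in unstressed cells by the ubiquitin ligase MDM2, and it accumulates when DNA damage or other stress breaks that hold. It then binds DNA as a tetramer at paired half-sites and raises genes that stop the cell cycle, repair DNA, temper oxidative stress or start cell death, together with MDM2 itself, which closes a feedback loop. Many cell cycle genes fall when p53 is active, through p21, the product of CDKN1A, and the DREAM repressor complex.

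The recognition sequence that defines such targets is shown first for 5 of the genes, as found in the reference genome (GRCh38). The search was for the p53 consensus of 2 half-sites of 10 bases with no spacer, the cores intact and at most 2 mismatches, on both strands and within 2500 bases of the canonical start site. It found a pair in 5 of the 10 genes (CDKN1A, BTG2, ZMAT3, FAS and RRM2B, the last not printed) and in 452 of 20044 protein-coding genes (2.26%). In SESN1 a pair with 3 mismatches was found in a 300-base RefSeq promoter window (GRCh38.p14), where 4.49% of 35116 windows hold a pair with at most 3 mismatches and a spacer of up to 13 bases. The table of those windows matched 8 of the 10 genes, and 2 of them, SESN1 and FAS, held such a pair there. Capitals mark the letters that match the consensus, and each sequence is written 5′ to 3′ on the strand given.
CDKN1A, chr6:36676449-36676468, plus strand, first base at -2265 from the canonical start: GAACATGTCCcAACATGTTg
BTG2, chr1:203303642-203303661, plus strand, first base at -1877 from the canonical start: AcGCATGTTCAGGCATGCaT
ZMAT3, chr3:179070188-179070207, minus strand, in an intron, first base at 1602 from the canonical start: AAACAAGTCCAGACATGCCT
SESN1, chr6:109009018-109009037, minus strand, in an intron of the canonical transcript, first base at -49 from an internal start: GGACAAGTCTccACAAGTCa
FAS, chr10:88991309-88991328, plus strand, in an intron, first base at 511 from the canonical start: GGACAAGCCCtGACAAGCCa
The ZMAT3 pair had 0 mismatches, and those of CDKN1A, BTG2 and FAS had 2. In 4 of the 10 genes no pair was found in these windows, which says nothing of sites elsewhere. Genes with a printed pair were found among those that rose, those that fell and those that were not called, as the values below show.

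The libraries held 23555205 to 28615770 counts, and values are given as TMM-scaled CPM (counts divided by the scaled size of their library), with SD between samples of a line. The quasi-likelihood F test of edgeR was applied to all 10 samples, and genes with an adjusted p under 0.0001, the study's own limit, are described as called. CPT1A itself checked the labels, at 264 ± 2.65 CPM in NT (SD, n = 2), 84.6 ± 2.92 in KD (n = 3), 322 ± 5.67 in EV (n = 2) and 882 ± 28.2 in OE (n = 3). All 8 prostate luminal markers were detected, with a summed level of 5775 to 6038 CPM in NT, 8400 to 9132 in KD, 7606 to 7969 in EV and 11170 to 11630 in OE. The 8 basal, stromal and leukocyte markers summed to 9.711 to 19.13 CPM over all samples, with KRT5 and COL1A2 at 0 in each. KD replicate 2 stood apart from the other KD samples, where a chi-square test of the counts gave 6.51 and 6.63 per degree of freedom against them and 1.99 to 4.34 for the other pairs within a line. Without it, 6 target genes were called against EV in OE, 2 were called against NT in KD, and the count between the controls went from 0 to 2 (BTG2 and RRM2B).

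A property of the transcripts, their content of G and C bases (GC), moved with every comparison. In OE versus EV, the median log2 fold change of all genes was -0.34 in the lowest of 5 equal classes of GC content and 0.26 in the highest, and in KD versus NT it ran from -0.21 to 0.15. Among the targets, RRM2B (35.1% GC), FAS (38.0%), ZMAT3 (38.2%), TP53INP1 (39.3%), MDM2 (39.5%) and SESN1 (40.6%) lay in the lowest class. BTG2 (50.5%) lay in class 3, CDKN1A (57.3%) in class 4, and TP53I3 (59.4%) and BBC3 (69.7%) in the highest. The fit was therefore repeated with an offset for GC content, added after seeing the data, and its values stand beside the results below; the origin of the trend was not tested.

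The 10 targets did not move as a block in either altered line. In OE versus EV, 6 of 10 were called, with CDKN1A and BBC3 higher and MDM2, ZMAT3, SESN1 and RRM2B lower, where 21.9% of all genes tested were called, 11.6% higher and 10.3% lower. In KD versus NT, 2 of 10 were called, BTG2 higher and ZMAT3 lower, where 29.1% of all genes were called, 16.4% higher and 12.8% lower. The share of targets called with TMM scaling alone was thus above the background in OE and below it in KD, in a set too small to draw more from. The median log2 fold change of the 10 was -0.0046 in OE and -0.16 in KD, beside -0.02 for all genes in both. The GC offset gave 3 targets called in OE versus EV (SESN1 and ZMAT3 lower, TP53INP1 higher), and 4 in KD versus NT (BTG2, MDM2 and TP53INP1 higher, BBC3 lower). Of all 17230 genes, that offset called 1885 higher and 1292 lower in OE versus EV, and 3288 and 2074 in KD versus NT. The share of targets called in KD was then no longer below that of all genes. With library size as the only scaling, which shifted the median of all genes in OE versus EV to -0.12, 0 targets were called higher and 4 lower in that comparison.

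**Figure D1:**
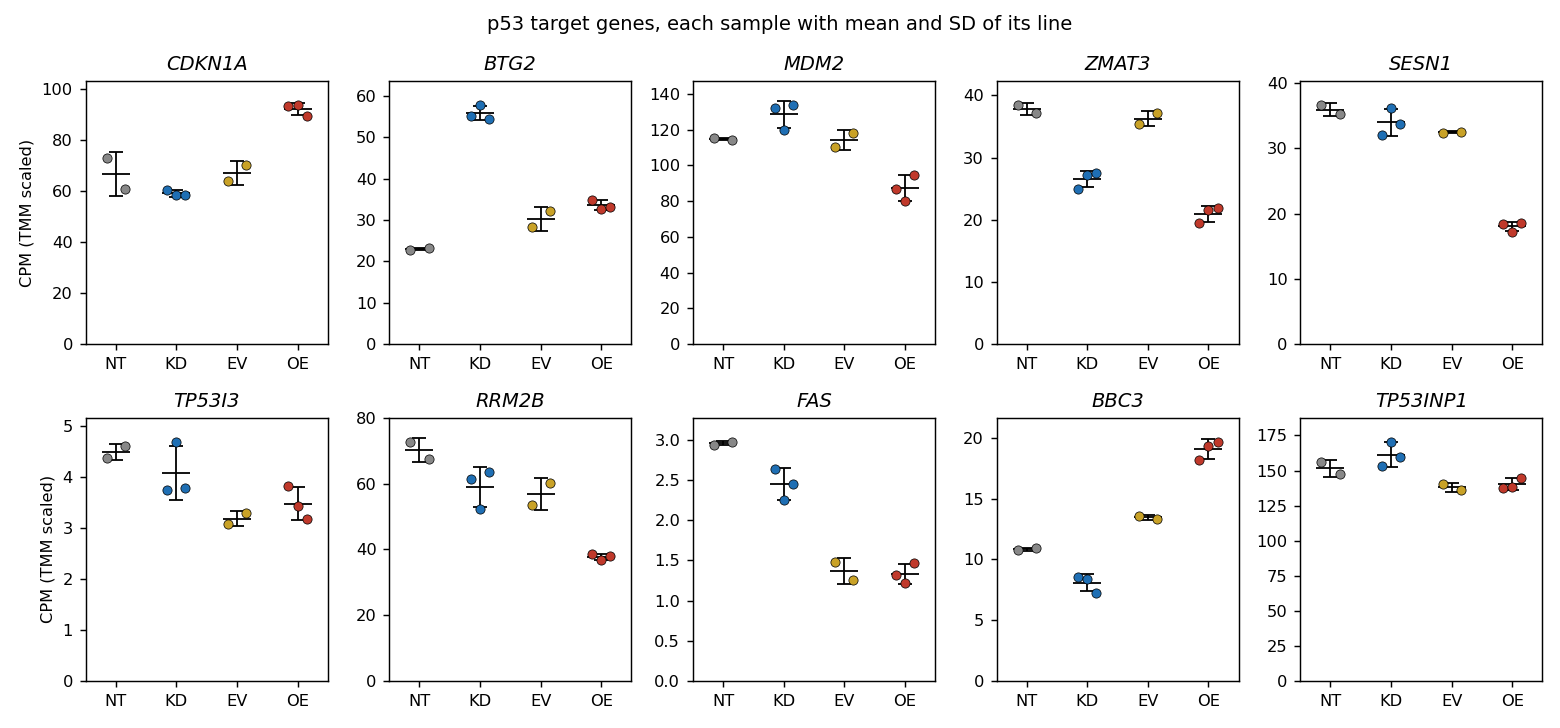
TMM-scaled CPM of the 10 p53 target genes in each sample (points), with the mean (bar) and SD of each line, on linear axes from 0. CDKN1A and BBC3 were highest in OE, BTG2 in KD, and MDM2, ZMAT3, SESN1 and RRM2B were lowest in OE.

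Transcript levels differed widely between the targets. Per kilobase of canonical transcript, CDKN1A stood at 31.5 ± 4.1 CPM in NT, followed by TP53INP1 at 27 ± 1.1, MDM2 at 15.3 ± 0.066 and RRM2B at 14.7 ± 0.76. BTG2 had 8.45 ± 0.11 CPM per kilobase, SESN1 6.34 ± 0.18, BBC3 5.87 ± 0.065, ZMAT3 4.23 ± 0.10, TP53I3 2.72 ± 0.099 and FAS 0.801 ± 0.0068 (SD, n = 2 throughout). MDM2 and RRM2B, neighbours in this order, differed by less than the SD of RRM2B. In OE the distance between CDKN1A, at 43.5 ± 1.1 CPM per kilobase, and TP53INP1, at 25 ± 0.73, was wider than in NT, and in KD both stood close together at 27.9 ± 0.60 and 28.8 ± 1.6.

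Among the genes of cell cycle arrest, CDKN1A (GRCh38 chr6:36676460-36687337) encodes p21, the inhibitor of cyclin-dependent kinases. It had 72.9 and 60.6 CPM in the NT samples, 60.6, 58.4 and 58.3 in KD, 63.9 and 70.3 in EV, and 93.3, 93.7 and 89.5 in OE. The 3 OE samples lay above all others, while the KD samples lay just under the lower NT sample. CDKN1A rose 1.37-fold in OE versus EV (log2 0.46 ± 0.064 SE, edgeR adjusted p = 2.2e-06). Its log2 value in KD versus NT was -0.18 (adjusted p = 0.0222) and it was not called. The call in OE was lost with the GC offset (0.30, adjusted p = 0.000111), with library size alone (0.36) and without EV replicate 1 (0.41), the direction staying the same in each.

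BTG2 (chr1:203305491-203309602), an antiproliferative protein that speeds the removal of poly(A) tails, had the largest change of the 10. Its level was 22.9 and 23.3 CPM in NT and 55.2, 57.8 and 54.5 in KD, against 28.2 and 32.2 in EV and 34.9, 32.7 and 33.1 in OE. All 3 KD samples stood above every other sample, and both EV samples above both NT samples. BTG2 rose 2.42-fold in KD versus NT (log2 1.27 ± 0.068, adjusted p = 9.06e-14), and its value with the GC offset was 1.25. In OE versus EV the log2 value was 0.15 (adjusted p = 0.0612).

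MDM2 (chr12:68808177-68845544), the ligase that marks p53 for degradation, forms the feedback arm. The NT samples had 115.1 and 114.4 CPM and the 3 KD samples 119.6 to 133.8, while EV had 110.5 and 118.3 and OE 87.0, 80.2 and 94.9. The OE samples lay below all others, and the KD samples above all others. MDM2 fell by 0.39 on the log2 scale in OE versus EV (SE 0.062, adjusted p = 1.18e-05), a 1.31-fold lower level, while CDKN1A moved the other way in the same samples. This change was -0.068 with the GC offset (adjusted p = 0.236) and 0.017 with GC and length, and the call was also lost without EV replicate 1 (-0.42), EV replicate 2 (-0.34) or OE replicate 1 (-0.38). In KD versus NT the log2 value was 0.16 (adjusted p = 0.0251), and 0.37 with the GC offset (adjusted p = 1.32e-08), where it was called.

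ZMAT3 (chr3:178960121-179072215), a zinc finger protein that binds RNA and shapes splicing, was the 1 target called in the same direction in both arms. It had 38.5 and 37.1 CPM in NT, 25, 27.2 and 27.5 in KD, 35.4 and 37.1 in EV, and 19.5, 21.6 and 21.9 in OE. Both altered lines lay below both controls in every sample. ZMAT3 was 1.73-fold lower in OE (log2 -0.79 ± 0.071, adjusted p = 3.09e-09) and 1.42-fold lower in KD (log2 -0.51 ± 0.068, adjusted p = 8.04e-07). Its values with the GC offset were -0.43 (adjusted p = 1.46e-05) and -0.26 (adjusted p = 0.00232), so that the call in KD was lost. It was also lost in KD without NT replicate 1 (-0.48).

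Of the genes of metabolism and redox balance, SESN1 (chr6:108984309-109094846), a sestrin that restrains mTORC1 and limits oxidative stress, had the largest fall. Its level was 36.6 and 35.2 CPM in NT, 32.1, 36.2 and 33.7 in KD, 32.4 and 32.6 in EV, and 18.4, 17.2 and 18.5 in OE. The OE samples formed a group of their own, while KD and NT overlapped. SESN1 was 1.80-fold lower in OE versus EV (log2 -0.85 ± 0.071, adjusted p = 1.13e-09), and the value with the GC offset was -0.57 (adjusted p = 1.45e-07). Its log2 value in KD versus NT was -0.079 (95% interval -0.22 to 0.058, adjusted p = 0.32). TP53I3 (chr2:24077433-24085861), a quinone reductase-like protein linked to oxidative stress, had 76 to 119 counts per sample and was called in neither arm (log2 0.13 in OE and -0.14 in KD), and its value in OE changed sign with the GC offset (-0.055).

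RRM2B, a subunit of ribonucleotide reductase that supplies nucleotides for DNA repair, had 72.8 and 67.6 CPM in NT, 61.3, 52.2 and 63.5 in KD, 53.5 and 60.3 in EV, and 38.6, 36.8 and 38.1 in OE. The OE samples were lowest, and both NT samples were above all others. RRM2B was 1.5-fold lower in OE versus EV (log2 -0.59 ± 0.073, adjusted p = 4.23e-07), but only -0.15 (adjusted p = 0.0292) with the GC offset, and -0.50 without EV replicate 2, where the call was lost too. In KD versus NT the log2 value was -0.25 (adjusted p = 0.0036), and 0.10 with the GC offset.

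The genes of cell death were split. BBC3 (chr19:47220822-47232766), which encodes PUMA, a BH3-only protein that frees BAX and BAK to start apoptosis, had 10.8 and 10.9 CPM in NT, 8.58, 8.36 and 7.26 in KD, 13.6 and 13.3 in EV, and 18.2, 19.4 and 19.7 in OE. The 4 lines did not overlap, in the order KD, NT, EV and OE. BBC3 rose 1.42-fold in OE versus EV (log2 0.50 ± 0.088, adjusted p = 4.15e-05), a call lost with the GC offset (0.19, adjusted p = 0.0635), with library size alone (0.41) and without any 1 of the EV or OE samples (0.48 to 0.54). In KD versus NT its log2 value was -0.43 (adjusted p = 0.000604) and -0.49 with the GC offset (adjusted p = 4.55e-05), where it was called.

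FAS (chr10:88953813-89029605), the death receptor, was the least abundant target, with 27 to 78 counts per sample. It had 2.94 and 2.98 CPM in NT, 2.64, 2.25 and 2.46 in KD, 1.48 and 1.26 in EV, and 1.32, 1.22 and 1.47 in OE. All EV and OE samples lay below all NT and KD samples, so the split ran between the vectors and their drugs, which cannot be told apart. In the comparisons within an arm the log2 value was -0.032 in OE (95% interval -0.50 to 0.44) and -0.27 in KD (-0.63 to 0.082). Changes within these intervals remain compatible with the data. The intervals are not limits of detection, since a log2 value of -1.11 in EV versus NT was not called either.

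TP53INP1, which promotes autophagy and p53 phosphorylation, was the most abundant of the 10 in CPM, at 147.3 to 170.6 in the NT and KD samples and 135.8 to 145.0 in the EV and OE samples. It was called in neither arm, with log2 values of 0.023 in OE and 0.089 in KD. Both rose past the limit with the GC offset, to 0.35 (adjusted p = 1.22e-05) and 0.31 (adjusted p = 3.74e-05). With library size alone the value in OE was -0.075.

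**Figure D2:**
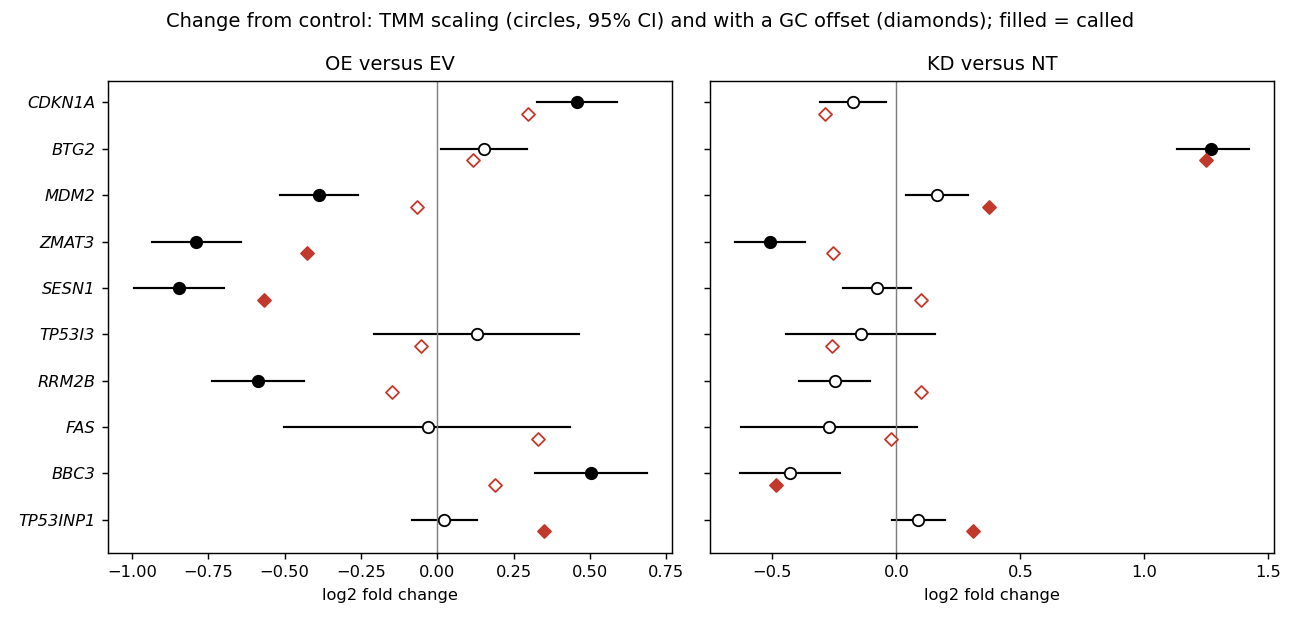
Log2 fold change of each target in OE versus EV (left) and KD versus NT (right), as black circles with 95% intervals, and with the GC offset as red diamonds; filled symbols were called at an adjusted p under 0.0001. SESN1 and ZMAT3 in OE and BTG2 in KD were called both ways, while MDM2 and RRM2B in OE moved towards 0.

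**Figure D3:**
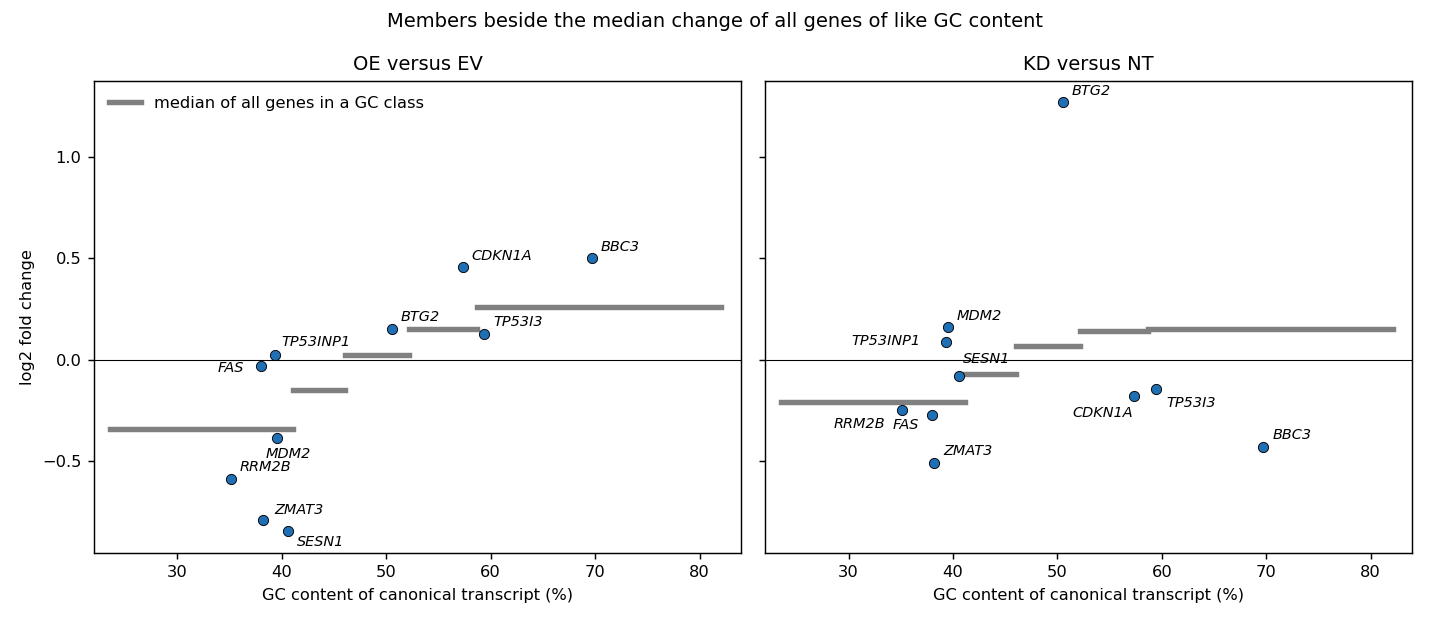
Log2 fold change of the targets against the GC content of their canonical transcript (points), with the median of all genes in each GC class (grey bars), for OE versus EV (left) and KD versus NT (right). In OE, ZMAT3 and SESN1 lay well below the median of -0.34 of their class and MDM2 close to it, and in KD BTG2 stood far above its class.

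Whether the 2 alterations differed was tested as an interaction, in which the log2 change of KD against NT is subtracted from that of OE against EV, as the study did. In it 5 of 10 targets were called, where 15.9% of all genes were, 6.94% higher and 8.98% lower. The 2 changes differed most for BTG2, at -1.12 (SE 0.096, adjusted p = 1.29e-09), and for BBC3, at 0.93 (SE 0.13, adjusted p = 3.37e-06). SESN1 had -0.77 (adjusted p = 7.32e-07), CDKN1A 0.63 (adjusted p = 3.88e-06) and MDM2 -0.55 (adjusted p = 1.39e-05). CDKN1A and BBC3 were thus higher, and BTG2, MDM2 and SESN1 lower, in OE relative to KD when each was read against its own control. With the GC offset the 5 values were -1.13, 0.68, -0.67, 0.59 and -0.44 in the same order, and 5 targets were called. With library size alone 1 was called higher and 3 lower, CDKN1A falling out, and without NT replicate 1 the count was 3.

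Read directly, without the controls, OE and KD differed in 7 of 10 targets, 2 higher and 5 lower in OE, where 31.9% of all genes were called. BBC3 was 2.37-fold higher in OE than in KD (log2 1.25 ± 0.083, adjusted p = 5.32e-12) and CDKN1A 1.56-fold higher (log2 0.64 ± 0.057, adjusted p = 8.57e-10). SESN1 was 1.88-fold lower, BTG2 1.66-fold, RRM2B 1.56-fold, MDM2 1.47-fold and ZMAT3 1.27-fold. This contrast and the interaction share their OE and KD samples, and vector and drug cannot be told apart from CPT1A in the direct one. The GC offset gave 5 targets called, where it called 2827 of the 17230 genes higher and 2506 lower. With it RRM2B (log2 -0.229) and ZMAT3 (-0.00287) lost their calls, so that no difference was left in ZMAT3. MDM2 shrank to -0.252 but was still called, as were SESN1 (-0.648), BTG2 (-0.762), BBC3 (0.869) and CDKN1A (0.495). Library size alone gave 2 higher and 7 lower.

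The control lines EV and NT gave 0 called targets of 10 with edgeR, DESeq2 and limma-voom, where 8.16% of all genes were called with edgeR, 5.25% higher and 2.91% lower. At an unadjusted p under 0.05 there were 6, a count not set against all genes. At an adjusted p under 0.05 there were 5, where 3194 of the 17230 genes tested were higher and 2673 lower. The values nearest the limit were those of FAS, 2.15-fold lower in EV (log2 -1.11 ± 0.21, adjusted p = 0.000257), and BTG2, 1.31-fold higher (log2 0.39 ± 0.077, adjusted p = 0.000336). In RRM2B the value between the controls was -0.30 (adjusted p = 0.0034), which became 0.021 with the GC offset. EV versus NT shares its samples with both arms, so its values are not independent of theirs.

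The groups did not overlap for 7 of 10 targets in OE versus EV (3 higher, 4 lower), for 7 in KD versus NT (2 higher, 5 lower) and for 8 in EV versus NT. Over all genes tested the corresponding shares were 68.9%, 70.6% and 68.1%, so the targets separated about as often as genes in general.

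The p53 inhibitors MDM4 and PPM1D were read beside the targets, with the caution that transcript counts do not measure the p53 protein, whose level is set mainly by its stability. MDM4, the MDM2-like repressor, was called in neither arm (log2 -0.21 in OE, adjusted p = 0.00468, and -0.20 in KD, adjusted p = 0.00671). PPM1D, the phosphatase that switches off the damage signal, had -0.064 in OE and 0.50 in KD (adjusted p = 0.000577), also not called. With the GC offset MDM4 had -0.00070 in OE and PPM1D 0.57 in KD, where it was called (adjusted p = 1.52e-05). The wider list of the p53 pathway's regulators had 16 tested genes. Of these, 1 was called higher and 6 lower in OE, and 3 higher and 4 lower in KD. Over all genes tested, 11.6% were called higher and 10.3% lower in OE, and 16.4% higher and 12.8% lower in KD. EV versus NT called 2 of the 16 higher and 3 lower, beside 5.25% and 2.91% of all genes. RPL5 was among those lower in EV (-0.381, adjusted p = 3.46e-06). Library size alone also gave 6 of the regulators lower in OE. With the GC offset RCHY1, at -0.051 (adjusted p = 0.634), and RPL5, at -0.21 (adjusted p = 0.000343), lost their calls in OE. ATM and ATR, the kinases that signal DNA damage, fell by 0.96 and 0.77 in OE (adjusted p = 7.69e-10 and 1.06e-08). HIPK2, a kinase that acts on p53, fell by 0.62 in OE versus EV (adjusted p = 1.96e-10). It had 200 ± 9.7 CPM in NT, 297 ± 2.4 in EV and 193 ± 7 in OE, so that OE was near NT. HIPK2 was called higher than in NT both in EV (log2 0.57, adjusted p = 9.19e-09) and in KD (0.44, adjusted p = 3.13e-08). In KD, CHEK2, a checkpoint kinase, rose by 1.52 on the log2 scale (adjusted p = 1.45e-14), RPL5, a ribosomal protein that can hold MDM2, fell by 0.74 (adjusted p = 1.41e-12) and ATM fell by 0.69 (adjusted p = 6.36e-08). The values of ATM and ATR in OE with the GC offset were -0.61 and -0.46.

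A wider view came from 74 other p53 targets in 4 lists, of which 71 were tested. In OE versus EV, 15 were called higher and 3 lower, with a median log2 fold change of 0.0034. In KD versus NT, 19 were called higher and 13 lower, with a median of 0.089. Between the controls, EV versus NT, 5 were called higher and 6 lower, beside 5.25% and 2.91% of all genes. In OE the split was 10 higher and 4 lower with library size alone and 9 and 2 with the GC offset. The interaction called 12 higher and 7 lower, which became 10 and 11 with library size alone and 13 and 10 with the GC offset. These genes therefore went both ways. Calls over all genes also leaned to the higher side, at 11.6% higher and 10.3% lower in OE and 16.4% and 12.8% in KD. In OE that lean was weaker than the 15 to 3 of the other targets. At an adjusted p under 0.05 the other targets were split 21 higher and 18 lower in OE and 29 and 19 in KD. The split in OE thus depended on the limit, and nothing particular to the targets is read from it.

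Among 15 tested targets of arrest and repair, 3 were called higher and 2 lower in OE, and 4 higher and 3 lower in KD. REV3L, the catalytic subunit of a translesion polymerase, fell by 1.00 in OE (adjusted p = 8.67e-09), while SERTAD1 rose by 0.97 (adjusted p = 8.21e-05) and BTG1, a relative of BTG2, by 0.63 (adjusted p = 4.3e-09). In KD, E2F7, a repressor of E2F genes, rose by 1.67 (adjusted p = 6.51e-13), TP53INP2 rose by 1.19 (adjusted p = 2.27e-13) and the kinase PLK2 fell by 1.5 (adjusted p = 2.55e-14). The call of SERTAD1 in OE was lost with the GC offset (adjusted p = 0.000223). REV3L was also called lower in KD, at -0.61 (adjusted p = 1.47e-06). The controls differed too: in EV versus NT, TP53INP2 was called higher (0.68), and PLK2 (-0.89), REV3L (-0.67) and BTG1 (-0.55) lower. BTG1 had 409 CPM in NT, 279 in EV and 432 in OE.

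Among 15 tested targets of cell death, 3 were called higher and 0 lower in OE, and 5 higher and 3 lower in KD. CDIP1 rose by 0.52 (adjusted p = 1.86e-08), BAX, a pore-forming executor of apoptosis, by 0.42 (adjusted p = 7.49e-05) and the death receptor TNFRSF10B by 0.26 (adjusted p = 3.67e-05) in OE. BAX was at 0.22 in OE with the GC offset (adjusted p = 0.0114) and lost its call there. It was also called higher in KD, at 0.49 (adjusted p = 8.36e-06). In KD, UNC5B, a netrin receptor, fell by 1.97 (adjusted p = 7.87e-11) and PMAIP1, which encodes the BH3-only protein NOXA, by 1.36 (adjusted p = 3.99e-10), while TNFAIP8 rose by 0.81 (adjusted p = 5e-08). These genes were also called in EV versus NT, with UNC5B (-0.89) and PMAIP1 (-0.74) lower and TNFAIP8 (0.78) higher in EV.

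Among 18 tested targets of metabolism and redox balance, 4 were called higher and 0 lower in OE, and 5 higher and 3 lower in KD. DRAM1, a lysosomal protein of autophagy, rose by 0.71 (adjusted p = 2.7e-07), FDXR, ferredoxin reductase, by 0.60 (adjusted p = 7.49e-08) and SESN2 by 0.38 (adjusted p = 4.81e-06) in OE. DRAM1 and FDXR were also called higher in KD, at 0.547 (adjusted p = 3.99e-06) and 0.495 (adjusted p = 9.71e-07). SESN2, the sestrin closest in role to SESN1, went from 113 ± 3.6 CPM in NT to 34.3 ± 0.92 in KD and from 95 ± 2 in EV to 124 ± 9.5 in OE, and so fell by 1.72 in KD (adjusted p = 3.72e-17). In KD, ALDH4A1, an enzyme of proline breakdown, rose by 1.00 (adjusted p = 1.05e-10) and the phosphatidate phosphatase LPIN1 by 0.77 (adjusted p = 3.55e-11). ALDH4A1 was also called higher in EV than in NT, at 0.55 (adjusted p = 3.37e-05). SESN2 in OE was at 0.20 with the GC offset (adjusted p = 0.0017) and not called.

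Of 23 tested targets in the list of secreted, membrane and other proteins, 5 were called higher and 1 lower in OE, and 5 higher and 4 lower in KD. ORAI3, a calcium channel subunit, rose by 1.03 (adjusted p = 1.94e-08), the matrix protein THBS1 by 0.98 (adjusted p = 2.06e-12) and the stress cytokine GDF15 by 0.69 (adjusted p = 1.02e-07) in OE. In KD, PHLDA1 rose by 3.04 on the log2 scale (adjusted p = 1.58e-13), from 1.31 ± 0.12 CPM in NT to 10.8 ± 0.74, THBS1 by 1.97 (adjusted p = 4.54e-18), and ENC1 fell by 1.21 (adjusted p = 5.55e-12). THBS1 was thus called higher in both arms, while GDF15 was called lower in KD, at -1.17 (adjusted p = 4.09e-12). PHLDA1 and THBS1 were also called higher in EV than in NT, at 1.86 (adjusted p = 1.52e-07) and 0.74 (adjusted p = 4.3e-09).

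The genes that p53 lowers through p21 and DREAM were, where called, higher in both altered lines than in their controls, and lower in OE than in KD. Of 16 tested, 10 were called higher and 0 lower in OE (median log2 value 0.82), and 15 higher and 0 lower in KD, with a median of 1.8. PLK1, a mitotic kinase, rose by 1.98 in OE (adjusted p = 8.79e-16) and 2.56 in KD (adjusted p = 4.54e-18), and CDC20, which activates the anaphase-promoting complex, by 1.73 (adjusted p = 6.47e-14) and 2.41 (adjusted p = 4.65e-17). CCNB1, cyclin B1, rose by 1.44 in OE (adjusted p = 2.13e-14), and BIRC5, survivin, by 2.21 in KD (adjusted p = 4.54e-18). In the interaction 0 were called higher and 12 lower, with a median of -0.98, and the direct contrast of OE and KD gave 0 higher and 15 lower, with a median of -0.93. Over all genes tested, 11.6% were called higher in OE and 16.4% in KD, and 8.98% were called lower in the interaction. The 10 genes called in OE were higher in the line in which CDKN1A was higher too.

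The stress response genes of the ATF4 and CHOP programme, which overlaps the p53 programme at SESN2, are listed for comparison. Of 9, 7 were called higher and 0 lower in OE, with a median of 0.45, and 0 higher and 9 lower in KD, with a median of -1.7. The interaction called 9 higher and 0 lower, with a median of 2.1. EV versus NT called 0 higher and 2 lower. TRIB3 rose by 0.65 (adjusted p = 5.59e-09), PPP1R15A by 0.61 (adjusted p = 1.11e-05) and CHAC1 by 0.49 (adjusted p = 4.11e-05) in OE, and DDIT3, which encodes CHOP, fell by 2.83 (adjusted p = 1.94e-18) in KD, where CHAC1 was at -2.27 (adjusted p = 1.95e-15) and TRIB3 at -1.79 (adjusted p = 3.84e-17). The 7 calls in OE became 3 with library size alone and 4 with the GC offset. ATF4 and CHOP are known to raise BBC3, PMAIP1, SESN2 and GDF15 as well, and the part of that programme in their values was not tested.

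**Figure D4:**
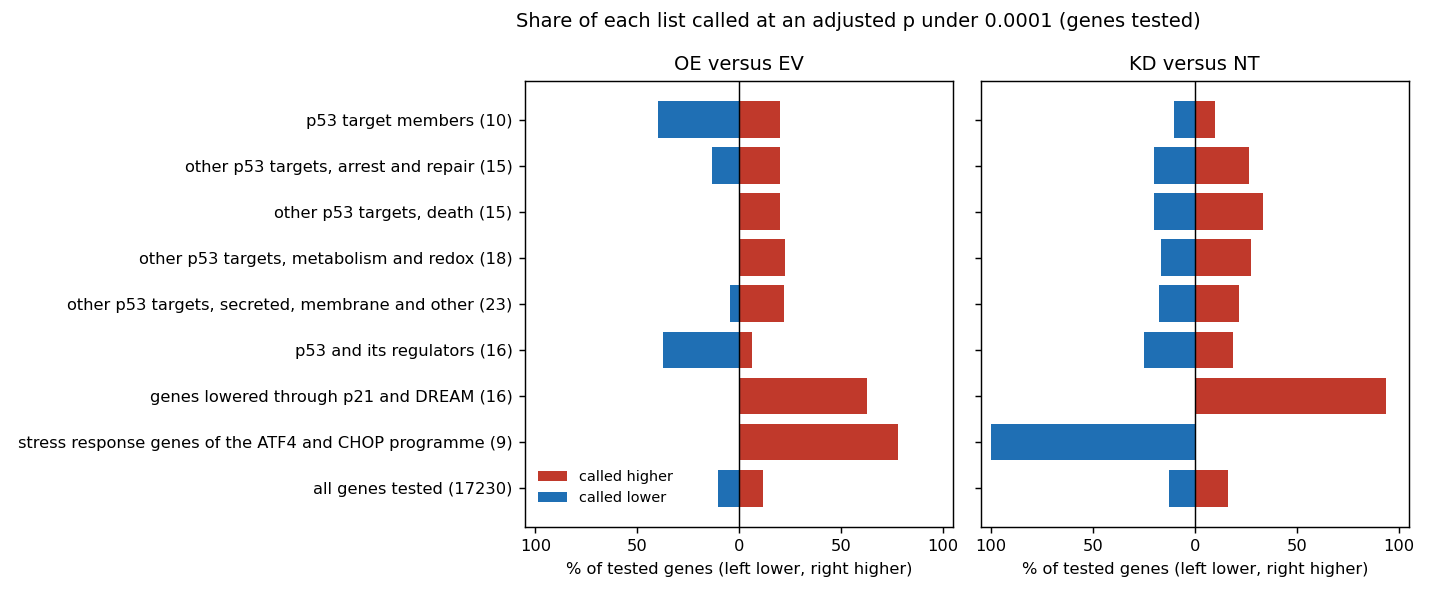
Percentage of the tested genes of each list called higher (red, to the right of 0) and lower (blue, to the left) at an adjusted p under 0.0001 in OE (left) and KD (right) against their controls, with the number tested in brackets. The 10 targets and the other p53 targets have bars on both sides in KD, while the DREAM list lies to the right in both panels and the ATF4 and CHOP list changes sides.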

How the data were processed

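RNA of 10 samples of LNCaP-C4-2 cells was sequenced from poly(A) libraries in pairs on a NovaSeq. The counts are whole numbers per gene symbol as deposited by the authors, who trimmed reads with BBDuk (minimum length 50), mapped them with STAR 2.6.0a to hg38 and counted reads per gene. Strand and the handling of reads that map to several genes are not given in the sources used here, so reads from overlapping genes cannot be separated.

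Samples were grouped by their labels. Counts were filtered with filterByExpr (17230 genes), normalized by TMM and fitted in edgeR 4.0.16 (R 4.3.3) for the quasi-likelihood F test, with 1 mean per line and Benjamini-Hochberg adjustment over all genes tested. The study used limma for the interaction. The 3 counts taken as the floor of detection equal 0.09951 to 0.1358 CPM. Intervals are at 95% and cover the spread between samples. The common biological coefficient of variation was 0.0446. Alternatives were other scalings, filters and limits, the DESeq2 1.42.0 Wald test, limma-voom (limma 3.58.1), a replicate block, each arm alone and leaving out each sample. Offsets for GC content, and for GC content and length, of the canonical transcript (GENCODE v44, lowess span 0.3) were added after seeing the data; 14034 tested genes (81.5%) had a value, matched by symbol. Positions are from GENCODE v44 on GRCh38 and promoter windows from RefSeq.

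On simulated data of the OE versus EV comparison with 16808 genes, edgeR recovered 54 of 97 genes changed by 0.5 on the log2 scale (55.7%) and 78 of 99 changed by 1 (78.8%), with 0 false calls. The simulation used the common dispersion for every gene, far fewer changed genes than were called here, and no GC trend. Its rates therefore do not carry over to the measured comparison.

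Genes named were the 10 targets, CPT1A, MDM4, PPM1D and, per list and arm, the 3 called genes with the largest change, together with the 3 genes closest in pattern to CDKN1A, MDM2 and BTG2; some genes this rule names are not reported here. The 10 targets and the lists were chosen with earlier results of these data known.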

Additional observations from a re-analysis of the deposited data

Results flagged for a closer look

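The changes from control differed between the 2 arms for 5 of the 10 p53 targets, by the interaction test of edgeR at an adjusted p under 0.0001. The change in OE minus the change in KD was 0.634 for CDKN1A, 0.933 for BBC3, -0.551 for MDM2, -1.12 for BTG2 and -0.768 for SESN1 on the log2 scale. For CDKN1A, BBC3 and MDM2 the changes in the arms had opposite signs, although in each of them only the change in OE was called on its own. That held for TMM scaling alone. With the GC offset the OE calls of all these genes were lost, and MDM2 (0.372) and BBC3 (-0.487) were called in KD instead. No line had the 4 samples that Dixon's test of a single distant value needs here.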

How the results depend on the processing

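Of the values recomputed under other settings, 735 kept their direction and their side of the limit, 24 passed the limit, 30 lost it and 31 changed sign. Replicate numbers did not pair the samples: 13 same-numbered pairs had a mean correlation of residuals of -0.0028 and 24 others 0.0016, and 2 of 10 samples correlated best with their own number. With replicate number as a block, 6 targets were called in OE versus EV, 2 in KD versus NT, 0 in EV versus NT, 7 in OE versus KD and 5 in the interaction, and the block moved no call of the other p53 targets by over 1.5 times.

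Leaving out 1 sample gave 3 to 6 targets called in OE versus EV (3 without either EV replicate 1 or EV replicate 2), 1 to 2 in KD versus NT (1 without NT replicate 1), 0 to 2 in EV versus NT (2 without KD replicate 2), 6 to 7 in OE versus KD and 3 to 6 in the interaction (3 without NT replicate 1). Where 1 sample of a control is left, that lone sample is assumed to vary like the other groups. Without a filter, EV versus NT gave 2. At an adjusted p under 0.05 there were 6 targets in KD versus NT and 5 in EV versus NT. The other p53 targets then numbered 39, 34 and 40 in OE versus EV, EV versus NT and the interaction, in place of 18, 11 and 19. Of all 17230 genes, that limit called 4411 higher and 4545 lower in OE versus EV, and 5019 and 4886 in KD versus NT. It called 3194 and 2673 in EV versus NT, and 3492 and 4139 in the interaction. The GC offset gave 3 targets in OE versus EV, 4 in KD versus NT and 11 other p53 targets in OE versus EV, and the offset for GC and length 2 and 4 targets. With library size alone the calls over all genes went from 2004 higher and 1774 lower to 1220 and 2168 in OE versus EV, from 2670 and 2820 to 1663 and 3705 in OE versus KD, and from 1196 and 1548 to 693 and 2127 in the interaction. With the GC offset they were 1885 and 1292 in OE versus EV, and 3288 and 2074 in KD versus NT.

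The log2 values that changed sign were these, and apart from the GC offsets the cause was not tested. In OE versus EV, TP53INP1 was -0.075 with library size alone and -0.000862 without OE replicate 3, and FAS 0.11 without EV replicate 1 and 0.025 without OE replicate 2, in a range of -0.14 to 0.11 over the samples left out. In EV versus NT, MDM2 was 0.00639 without a filter, 0.000985 without NT replicate 1 and 0.034 without EV replicate 1, in a range of -0.053 to 0.034. CDKN1A was -0.00675 there with at least 10 counts in every sample, -0.12 without NT replicate 2 and -0.0630 without EV replicate 2, in a range of -0.12 to 0.15. With the GC offset, OE versus EV gave TP53I3 -0.055 and FAS 0.33, KD versus NT gave SESN1 0.10 and RRM2B 0.10, and the interaction gave TP53INP1 0.043. In EV versus NT it gave CDKN1A -0.091, MDM2 0.19, ZMAT3 0.17, SESN1 0.021, RRM2B 0.021 and TP53INP1 0.062. With GC and length, OE versus EV gave MDM2 0.017, TP53I3 -0.096 and FAS 0.34, KD versus NT gave SESN1 0.089 and RRM2B 0.092, and the interaction gave TP53INP1 0.11. In EV versus NT it gave CDKN1A -0.070, MDM2 0.14, ZMAT3 0.12 and TP53INP1 0.028. Depth limits FAS and TP53I3 most, at 27 to 78 and 76 to 119 counts per sample.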

Other observations

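The genes closest to CDKN1A in pattern over the 10 samples were CTDSP2, ZSCAN22 and DNAJC3, with a root mean square difference of centred log2 CPM of 0.076, 0.078 and 0.080, beside a range of 0.684 for CDKN1A itself. For MDM2 they were IDE (0.0441), ANKRD28 (0.0477) and SBNO1 (0.0517), beside a range of 0.738. For BTG2 they were POLD1 (0.0903), DNMT1 (0.0952) and SLC29A1 (0.0982), beside a range of 1.33. None of these was in the lists of p53 targets used here. With so few genes picked out of 17229 compared, and lists so short, nothing is read from that.

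Among the cell markers, 5 of 8 luminal markers were called higher in OE and 4 in KD, each against its control, with 0 and 1 called lower. Of the same 8, EV versus NT called 5 higher and 0 lower. KLK3 rose by 0.77 and 0.85 on the log2 scale, KLK2 by 0.72 and 0.78, and HOXB13 by 0.72 in OE. In KD, KRT14 rose by 1.97, from 0.408 to 1.61 CPM, and COL1A1 by 0.63. Their part in the values of the p53 targets was not tested.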
